A study of Mus musculus with 10 samples.

Results

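Leukocytes leave the blood in steps that the vessel wall controls. Selectins on the endothelium first slow passing cells, immunoglobulin-type adhesion molecules then hold them by binding leukocyte integrins, and junctional molecules take part in their passage between endothelial cells. In the brain this happens at the blood-brain barrier, where resting endothelium carries few of the inducible molecules and inflammatory signals, in large part through the transcription factor NF-kappaB, raise them. Here 9 genes of this kind were followed in brain RNA: the selectins Sele and Selp, the integrin ligands Icam1, Icam2 and Vcam1, the CD6 ligand Alcam, the junctional molecules Mcam and F11r, and the diapedesis molecule Cd99l2. They were chosen by gene symbol. All 9 were among the 54532 genes of the count table. Filtering on low counts kept 7 of them, among 17665 genes kept in all, and left out Sele and Selp.

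RNA-seq was performed on the brains of 10 mice, and every mouse was homozygous for a knockout of the phosphate transporter gene Slc20a2 (HO), so no wild type mouse entered any comparison. Of these, 6 received FTY720, a modulator of sphingosine-1-phosphate receptors that keeps lymphocytes in the lymphoid organs, and 4 received the solvent DMSO as placebo. Per the study's methods the dose was 0.5 mg/kg, injected intraperitoneally 3 times a week from the age of 1.5 months for 12 weeks. The mice were perfused with saline and RNA was taken from 1 of the 2 parts of each brain, as a bulk sample in which fewer cells of a type and less RNA per cell cannot be told apart. The comparison asked whether the mRNA levels of these adhesion molecules differed between FTY720 and placebo.

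The gene counts summed to 14772745 in the smallest library and 18303981 in the largest. Mice are named F1-622 or P3-612, for example, and libraries differed most by the digit after the group letter, whose meaning the labels do not give: Gabra6, a gene of cerebellar granule cells, was at 0.0589 to 0.240 CPM (counts scaled by TMM-adjusted library size) in the 4 mice with digit 1 and at 130.05 to 171.8 CPM in the 6 with digit 3. FTY720 mice were 3 with digit 1 and 3 with digit 3, and placebo mice 1 and 3, so values with the digit as a covariate are given beside the treatment comparison. Slc20a2 transcripts were counted in every mouse, at 6.31 to 14.8 CPM with FTY720 and 9.43 to 17.0 CPM with placebo, which without a wild type library does not check the knockout. The endothelial markers were all above the filter (24 of 24), and Cldn5, a tight junction protein of brain endothelium, was at 15.02 to 29.7 FPKM (a level per length of transcript and per library size). Of 16 T cell genes 6 passed the filter, and the list summed to 12.2 to 21.6 CPM with FTY720 and 13.7 to 23.5 CPM with placebo. Cd4 (63 to 125 counts, median 5.33 CPM) and Trbc2 (30 to 134 counts, median 5.07 CPM) were the best counted and made up much of this sum. The T cell receptor subunit genes Cd3d, Cd3e and Cd3g had at most 2, 9 and 4 counts in any mouse. The sum can therefore not be read as a level of T cells.

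The selectin genes lie close together on chromosome 1 of GRCm38, Sele (ENSMUSG00000026582) at chr1:164048234-164057677 and Selp (ENSMUSG00000026580) at chr1:164115264-164150026, both on the plus strand. The integrin ligands are Icam1 (ENSMUSG00000037405) at chr9:21015985-21028817 on the plus strand, Icam2 (ENSMUSG00000001029) at chr11:106377656-106388075 on the minus strand and Vcam1 (ENSMUSG00000027962) at chr3:116109949-116129688 on the minus strand. Alcam (ENSMUSG00000022636) is at chr16:52248996-52454074 and Cd99l2 (ENSMUSG00000035776) at chrX:71420060-71492849, both on the minus strand. Mcam (ENSMUSG00000032135) is at chr9:44134469-44142727 and F11r (ENSMUSG00000038235) at chr1:171437535-171464603, both on the plus strand.

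The upstream sequences of Icam1 and Sele are shown because both genes are known to be induced by NF-kappaB, the pathway whose genes are compared with the adhesion molecules later. They are the 250 bases before the RefSeq start site (GRCm38.p6), 5′ to 3′ on the gene's strand, with the 9-letter kappaB-type pattern GGNNNTTCC and the TATA pattern TATAAA in capitals wherever either was found on either strand. The window of Icam1 is chr9:21015690-21015939 (plus strand) and that of Sele chr1:164047984-164048233 (plus strand).
Icam1: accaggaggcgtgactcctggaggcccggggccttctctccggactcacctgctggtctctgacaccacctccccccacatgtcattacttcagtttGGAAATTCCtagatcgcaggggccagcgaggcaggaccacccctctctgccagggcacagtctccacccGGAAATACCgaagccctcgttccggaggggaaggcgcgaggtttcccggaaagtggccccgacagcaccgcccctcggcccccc
Sele: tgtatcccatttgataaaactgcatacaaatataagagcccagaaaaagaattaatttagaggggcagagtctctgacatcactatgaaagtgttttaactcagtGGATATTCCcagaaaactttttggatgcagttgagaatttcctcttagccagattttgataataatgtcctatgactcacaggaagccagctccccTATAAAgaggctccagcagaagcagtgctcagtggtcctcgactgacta
In Icam1 the pattern began 153 bases before the start site, where it was matched on both strands, and again 84 bases before it on the minus strand. In Sele it began 145 bases before the start site, and the TATA pattern 49 bases before it. Of the 7 members with an entry in the table of start sites (Icam1, Sele, Selp, Alcam, Mcam, F11r and Cd99l2), 3 had the kappaB-type pattern (Icam1, Sele and Selp) and 1 had TATAAA (Sele). The shares among all 32817 windows were 15.7% and 12.4%. The patterns were picked after several had been looked at, and a match in letters is not evidence of binding.

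The study compared selectin transcripts of HO and wild type mice by PCR in RNA of isolated brain microvessels, not in the brain RNA sequenced here. Its primer pairs are shown because these transcripts were at the limit of the RNA-seq depth (5′ to 3′).
Sele forward: agctacccatggaacacgac
Sele reverse: acgcaagttctccagctgtt
Selp forward: gtccacggagagtttggtgt
Selp reverse: aagtggtgttcggaccaaag
In the GENCODE M21 transcripts the Sele pair encloses 199 bases in the only transcript of the gene, and the Selp pair 241 bases in 2 of its 5 transcripts. No transcript of another gene held both primers of either pair. Gene-level counts do not separate these transcripts.

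Per length, the members spanned a wide range of levels. The median over the 10 mice was 25.7 FPKM for Alcam and 20.5 FPKM for Cd99l2, followed by 7.97 FPKM for Mcam, 3.78 FPKM for Vcam1 and 2.78 FPKM for F11r. Icam2 (0.870 FPKM) and Icam1 (0.593 FPKM) did not exceed 1.32 and 0.791 FPKM in any mouse, and Sele (0.0791 FPKM) and Selp (0.0125 FPKM) were lowest. Neighbours in this order overlapped in their ranges over mice, except Cd99l2 with Mcam (lowest 19.2 against highest 9.64 FPKM) and F11r with Icam2 (lowest 2.20 against highest 1.32 FPKM). Within each mouse Alcam was nonetheless above Cd99l2 in 10 of 10 mice and Vcam1 above F11r in 10 of 10. Several members are not particular to vessels. Alcam and Cd99l2 are also made by neurons, Mcam also by pericytes and smooth muscle, and F11r also by the choroid plexus and platelets. For orientation, the endothelial adhesion molecule Pecam1 had a median of 2.54 FPKM and the leukocyte gene Ptprc 0.301 FPKM.

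**Figure D1:**
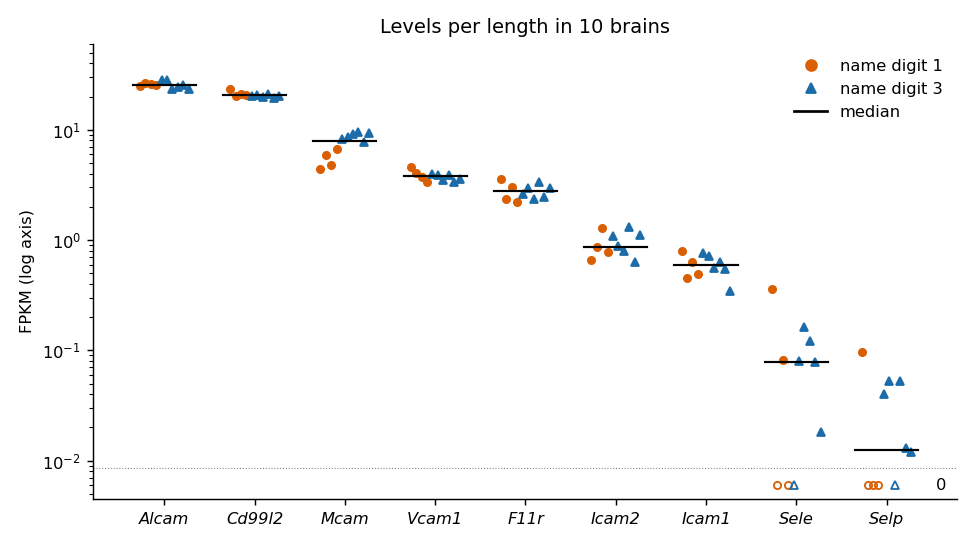
FPKM of the 9 adhesion molecules in each of the 10 mice on a log axis, ordered by median (black line), with circles for mice with digit 1 and triangles for digit 3, and open symbols in the lowest strip for values of 0. Alcam and Cd99l2 have the highest medians (25.7 and 20.5 FPKM), while Sele and Selp include mice at 0.

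The members also differed in their spread between mice. Over all 10 mice the coefficient of variation of the CPM was 5.28% for Cd99l2, 5.98% for Alcam and 9.88% for Vcam1. It was 16.6% for F11r, 23.7% for Icam1, 25.9% for Mcam and 26.1% for Icam2. Icam1 and Icam2 rest on few counts, 28 to 56 and 18 to 43 per mouse, whereas Mcam had 209 to 593. The FTY720 mouse F1-622, the library with the fewest counts, had the highest CPM of 6 of the 9 members, namely Sele, Selp, Icam1, Vcam1, F11r and Cd99l2. In the same mouse the neutrophil genes S100a8 and S100a9 had 159 and 172 counts. The placebo mouse P3-612 came next with 54 and 55, and the other mice had 2 to 31 and 2 to 26. The list of leukocyte markers other than T cells, to which both belong, summed to 34.2 CPM in F1-622 against 8.29 to 18.4 CPM, but without these 2 genes to 10.8 CPM against 7.33 to 11.9 CPM, and the neutrophil marker Ly6g had 0 to 3 counts per mouse. Blood markers summed to 42.2 CPM in P3-612 and to 3.85 to 18.7 CPM in the other mice. P3-612 had the highest CPM of 2 members, Icam2 and Mcam. Whether leukocyte or blood RNA has a part in the adhesion molecule values was not tested. Values without F1-622 are given where they differ.

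E-selectin and P-selectin, the tethering receptors of the endothelium, were too low to judge. Sele had 6, 0, 4 and 1 counts in the placebo mice P3-612, P1-623, P3-904 and P3-907, and 0 to 15 counts with a median of 4 in the FTY720 mice. Selp had 4, 0, 1 and 1 counts with placebo, and 0 to 6 counts with a median of 1.5 with FTY720. Groups overlapped in both genes, each with mice at 0 in either group, and F1-622 held the highest count of each. In the mice with 0 counts a level of up to 0.177 to 0.197 CPM is allowed (3 counts, counting error only), and only 6 mice had more than 3 counts of Sele and 3 mice more than 3 of Selp. In a fit without a filter the log2 fold change for FTY720 over placebo was 0.9996 for Sele (standard error 0.94, 95% interval -0.96 to 2.96, exact permutation p = 0.581) and 0.59 for Selp (standard error 1.09, interval -1.66 to 2.85, exact permutation p = 0.733). In folds these intervals run from 0.514 to 7.78 and from 0.316 to 7.22, so a difference was not detectable at this depth. F1-622 held 15 of the 31 FTY720 counts of Sele and 6 of the 13 of Selp. Without it, an alternative chosen after the data were seen, the FTY720 mean of Sele went from 0.336 to 0.190 CPM (placebo 0.160 CPM) and that of Selp from 0.139 to 0.0823 CPM (placebo 0.0874 CPM), where the direction turned.

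**Figure D2:**
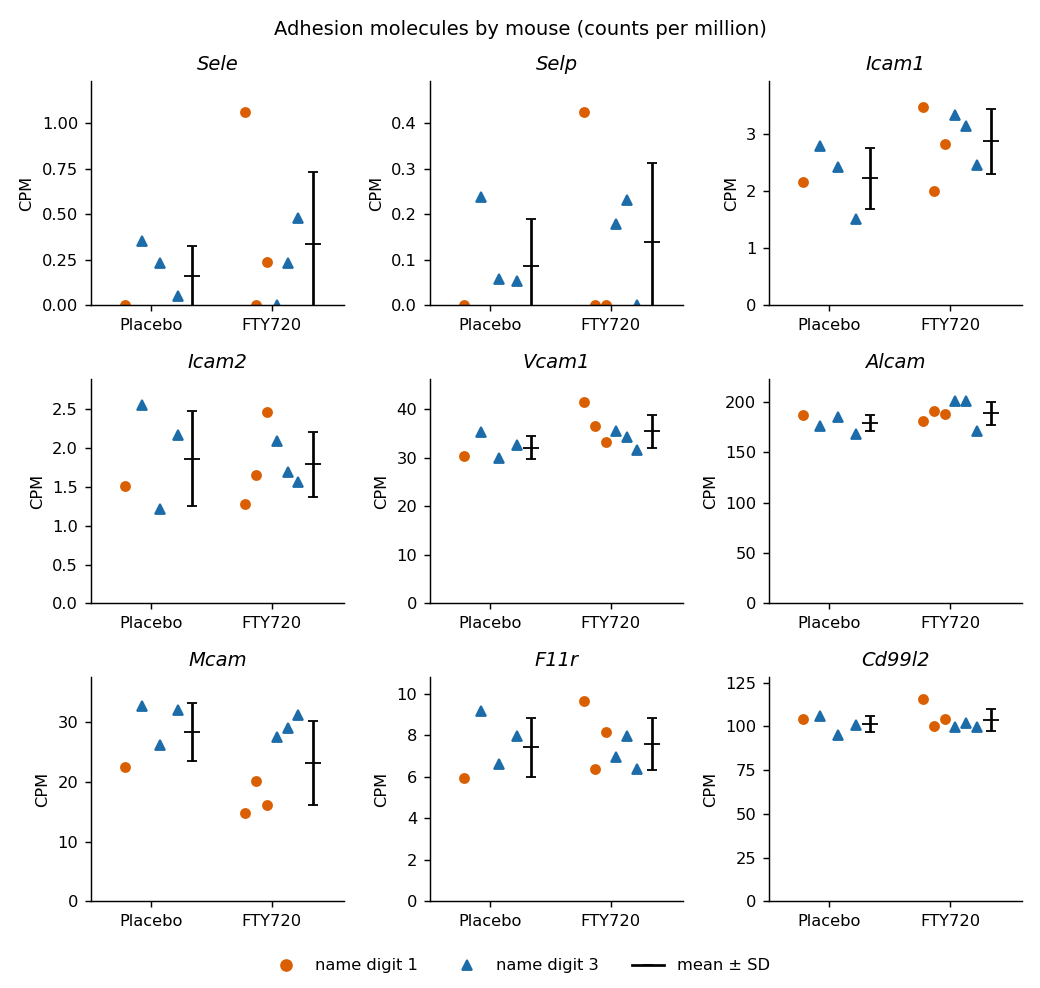
CPM of each adhesion molecule in each mouse by treatment, with circles for digit 1, triangles for digit 3, and the mean ± SD of each group (4 placebo, 6 FTY720) in black. Placebo and FTY720 mice overlap in all 9 genes, and in Mcam the circles lie below the triangles in both groups.

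No difference between FTY720 and placebo passed the test in any of the 7 members. With edgeR's quasi-likelihood test and Benjamini-Hochberg adjustment over all genes, 0 of 7 had an adjusted p under 0.05, as for all genes (0% called), and 0 of 7 had an unadjusted p under 0.05, where 2.61% of the protein-coding genes did. DESeq2 and limma on the FPKM table also gave 0 and 0. With the digit as a covariate the count at unadjusted p under 0.05 stayed at 0 of 7, against 14.1% of protein-coding genes. Groups did not separate in any of the 7, where 0.839% of protein-coding genes had groups that did not overlap. The median log2 fold change of the 7 was 0.03 (range -0.29 to 0.37), and that of the protein-coding genes 0.0046. Every adjusted p among them was 0.99992.

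Icam1, the ligand of leukocyte beta-2 integrins and a classical cytokine-induced molecule, had the highest fold among the 7 members that passed the filter. It was at 2.79, 2.16, 2.42 and 1.52 CPM in the placebo mice and at 2.004 to 3.47 CPM, median 2.98, with FTY720. The groups overlapped, with the lowest value in a placebo mouse and the highest in F1-622. The means were 2.87 ± 0.563 CPM (SD, n = 6) and 2.22 ± 0.538 CPM (SD, n = 4), a fold of 1.29 with a 95% interval of 0.907 to 1.83 (unadjusted p = 0.141 by edgeR, exact permutation p = 0.119). The log2 fold change was 0.37 in all mice, 0.39 when the model included the digit, 0.42 in the 6 digit 3 mice and 0.31 without F1-622. With any 1 mouse left out it ran from 0.22 (without P3-907) to 0.50 (without P3-612). The antisense gene Gm47079 overlaps Icam1 with 9 to 21 counts, and without a stated strand setting reads of the overlap cannot be told apart.

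Vcam1, the ligand of the alpha-4 integrins by which T cells attach to inflamed brain vessels, was measured with 464 to 618 counts per mouse. It was at 35.2, 30.4, 29.97 and 32.6 CPM with placebo and at 31.6 to 41.4 CPM, median 34.9, with FTY720. Placebo mice lay within or below the FTY720 range, whose highest value was again F1-622. The fold was 1.11 with an interval of 0.944 to 1.29 (unadjusted p = 0.194 by edgeR, exact permutation p = 0.114), and the log2 fold change of 0.14 became 0.13 when the model included the digit, 0.06 in the digit 3 mice and 0.10 without F1-622.

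Icam2, a ligand of beta-2 integrins on resting endothelium, was at 2.55, 1.51, 1.21 and 2.17 CPM with placebo and at 1.28 to 2.46 CPM, median 1.67, with FTY720. Placebo values covered the whole FTY720 range. The fold was 0.960 with an interval of 0.636 to 1.45 (unadjusted p = 0.835 by edgeR), with only 18 to 43 counts per mouse behind it, and the sign of the log2 fold change of -0.06 turned when P3-612, P3-907 or F1-622 was left out.

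Alcam and Cd99l2 were the best measured and the most even. Alcam, an activated leukocyte adhesion molecule that binds CD6 on T cells, was at 176, 186, 185 and 168 CPM with placebo and at 171 to 200.6 CPM, median 189, with FTY720. Its fold was 1.05 with an interval of 0.922 to 1.21. Cd99l2, a relative of CD99 that acts late in transmigration, was at 106, 104, 95.1 and 100.7 CPM with placebo and at 99.6 to 116 CPM, median 101, with FTY720. Its fold was 1.02 with an interval of 0.896 to 1.16, and its log2 fold change of 0.03 was 0.0050 without F1-622 and 0.0019 without P3-904. In both genes the groups overlapped, and the intervals are the narrowest among the members.

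F11r, or junctional adhesion molecule A of the tight junction, was at 9.15, 5.96, 6.64 and 7.96 CPM with placebo and at 6.37 to 9.64 CPM, median 7.47, with FTY720. Both groups covered nearly the same range. The fold was 1.02 with an interval of 0.785 to 1.32 (unadjusted p = 0.876 by edgeR), and the log2 fold change of 0.03 was -0.15 in the digit 3 mice, -0.04 without F1-622, -0.06 without P1-623 and -0.02 without P3-904.

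Mcam (CD146), which takes part in endothelial junctions and binds lymphocytes, had the lowest fold of these 7 members, and Icam2 was the only other with a negative value. It was at 32.7, 22.6, 26.2 and 32.1 CPM with placebo and at 14.8 to 31.3 CPM, median 23.9, with FTY720. The groups overlapped, but the 3 lowest values of all belonged to the FTY720 mice with digit 1. The fold was 0.817 with an interval of 0.589 to 1.13 (unadjusted p = 0.206 by edgeR, exact permutation p = 0.224). The log2 fold change of -0.29 was -0.17 when the model included the digit, -0.04 in the 6 digit 3 mice and -0.18 without F1-622.

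**Figure D3:**
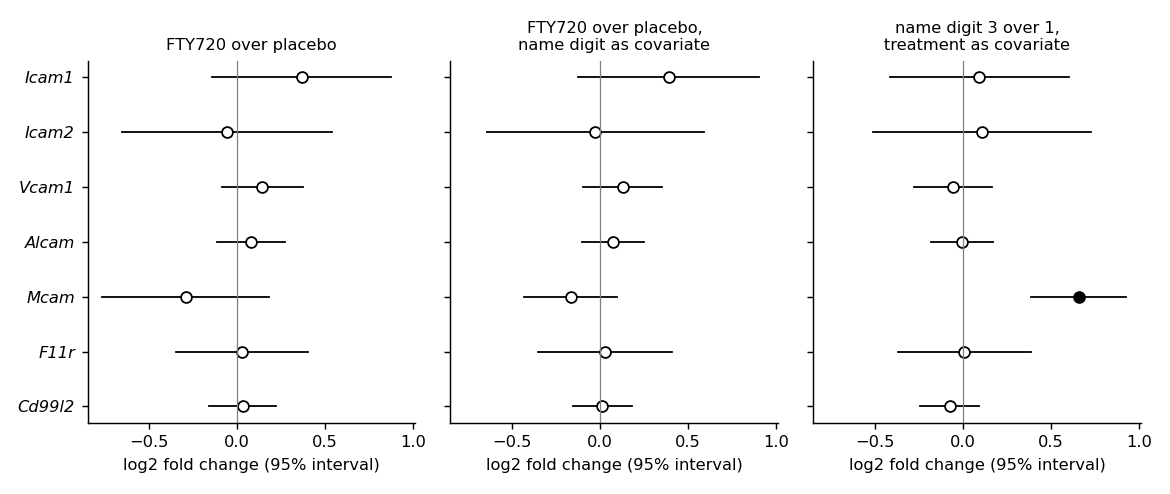
Log2 fold changes with 95% intervals of the 7 members tested, for FTY720 over placebo, the same with the digit as a covariate, and digit 3 over digit 1 with treatment as a covariate (edgeR). Filled points have an adjusted p under 0.05, which holds for Mcam in the digit comparison and for no other point.

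Mcam differed with the digit in the mouse's name, and no other member passed that test. Of the 7 members, 1 had an adjusted p under 0.05 between digit 3 and digit 1 with treatment in the model, where 28.4% of all genes did. Mcam was higher with digit 3, as were 13.9% of all genes. It was at 14.8, 20.2, 16.2 and 22.6 CPM in the mice with digit 1 and at 26.2 to 32.7 CPM, median 30.2, in those with digit 3. The digits did not overlap, in 1 of the 7 members and in 15% of protein-coding genes. The fold was 1.58 with an interval of 1.31 to 1.90 (log2 fold change 0.66 ± 0.12 SE, edgeR adjusted p = 0.00293, exact permutation p = 0.00476), and in FTY720 mice alone, 3 against 3, the log2 fold change was 0.78 (adjusted p = 0.0069). Whether FTY720 acts differently on it in either digit was not tested, because only 1 placebo mouse had digit 1.

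Markers of some other cell types also moved with the digit. All 15 cerebellar genes were higher with digit 3 and 11 of 15 microglial genes lower (adjusted p under 0.05), where 28.4% of all genes were called. Of the mural genes 0 of 13 were higher and 2 lower, and of the endothelial genes 3 of 24 were higher and 1 lower. Of the astrocyte genes 3 of 11 were higher and 1 lower, and of the neuronal genes 1 of 11 was higher and 2 lower. The fibroblast, choroid plexus, T cell, other leukocyte and blood lists held at most 1 called gene each. Summed over the list, the cerebellar genes were at 900.4 to 1012 CPM with digit 1 and at 2773 to 3257 CPM with digit 3. The largest medians in this list were those of Itpr1 (721 CPM) and Calb1 (295 CPM), with log2 fold changes of only 0.95 and 0.87. Gabra6 and Cbln3, with log2 fold changes of 10.3 and 8.76, had at most 4 and 19 counts in any mouse with digit 1. The endothelial genes summed to 453 to 599 CPM with digit 1 and 465 to 680.4 CPM with digit 3. The mural genes summed to 199 to 229 and 186 to 234 CPM. Gm10687, antisense to Mcam and overlapping its start, had 13 to 65 counts per mouse. The part of these in the difference of Mcam was not tested. The log2 fold changes of the other members between digits lay between -0.07 for Cd99l2 and 0.11 for Icam2.

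Around the adhesion molecules, genes of the same processes were compared from lists chosen by function. Of the other adhesion and diapedesis molecules of vessels, 16 of 20 in the table were tested, and 2 were higher with FTY720 at unadjusted p under 0.05 (Pecam1 and Podxl) and 0 lower. None of 17 tested trafficking receptors and ligands of leukocytes, 4 chemokines of vessels and 20 genes of the NF-kappaB pathway passed in either direction. With the digit as a covariate the counts were 3 higher and 4 lower of the other adhesion molecules, 1 and 1 of the leukocyte receptors, 0 and 0 of the chemokines, and 3 and 0 of the NF-kappaB genes. Over all protein-coding genes the share at unadjusted p under 0.05 was 2.61% without and 14.1% with the covariate. The medians of these lists without the covariate lay between -0.10 (chemokines) and 0.07 (leukocyte receptors). No gene in them had an adjusted p under 0.05.

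Pecam1, which leukocytes engage as they pass between endothelial cells, was at 15.3, 13.6, 15.4 and 13.4 CPM with placebo and at 15.9 to 23.3 CPM, median 20.4, with FTY720. Podxl, a sialomucin of the endothelial surface, was at 20.4, 22.1, 26.8 and 26.4 CPM with placebo and at 27.9 to 35.5 CPM, median 31.3, with FTY720. In both genes every FTY720 mouse was above every placebo mouse, and groups were apart in one direction or the other in 0.839% of protein-coding genes. Relative to the mean log2 CPM of the 24 endothelial markers, the groups overlapped in both, with differences of 0.19 for Pecam1 (exact permutation p = 0.0571) and 0.16 for Podxl (exact permutation p = 0.200). The log2 fold change was 0.43 for Pecam1 (standard error 0.14, unadjusted p = 0.00734) and 0.39 for Podxl (standard error 0.12, unadjusted p = 0.00743), both with an adjusted p of 0.99992 by edgeR, and the exact permutation p was 0.00952 for each, where the smallest possible is 0.00476. With the digit as a covariate the values were 0.49 and 0.42.

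**Figure D4:**
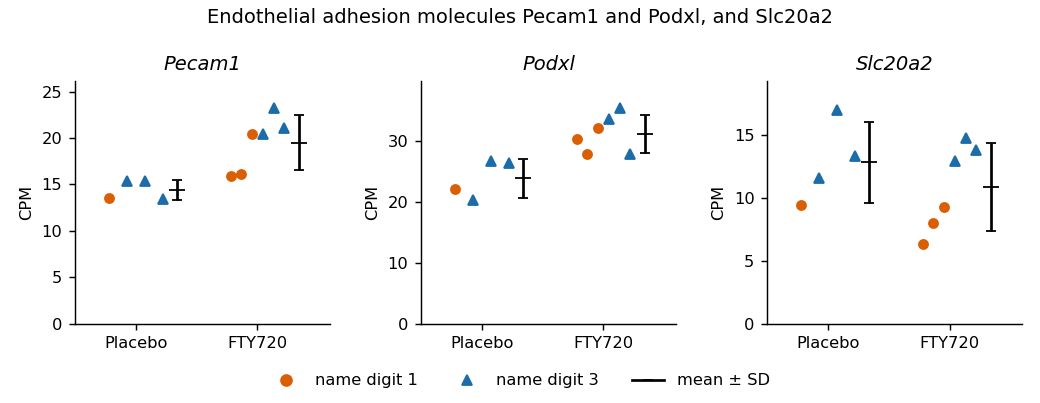
CPM of Pecam1, Podxl and Slc20a2 in each mouse by treatment, with circles for digit 1, triangles for digit 3, and the mean ± SD of each group (4 placebo, 6 FTY720) in black. FTY720 mice lie above placebo mice in Pecam1 and Podxl, and Slc20a2 separates by digit.

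Markers of the vessel wall were counted in the same way. Of the 24 endothelial markers, 6 were higher with FTY720 at unadjusted p under 0.05 and 0 lower, with a median log2 fold change of 0.23, and 21 of 24 were positive. Over all protein-coding genes the share was 2.61%. The 6 were the transporters Slco1a4 (0.61), Abcb1a (0.51) and Mfsd2a (0.36), the adhesion receptor Adgrl4 (0.53), Ly6c1 (0.46) and the haemostasis factor Vwf (0.31). Of 13 mural markers, Rgs5 of pericytes was higher (0.54) and 0 were lower, with a median of -0.11. Of 10 fibroblast markers, the transporter Slc6a13 was lower (-0.35). None of these had an adjusted p under 0.05, and Cldn5 was not among them, at 21.5 to 40.2 CPM with FTY720 and 26.96 to 42.7 CPM with placebo. The summed endothelial list was at 486 to 680.4 CPM with FTY720 and 453 to 501 CPM with placebo. Markers of astrocytes (11), microglia (15), neurons (11), cerebellum (15), choroid plexus (12), T cells (6), other leukocytes (4) and blood (5) that were tested held 0 genes at unadjusted p under 0.05. With the digit in the model the counts were 10 higher and 0 lower of the endothelial, 1 and 1 of the mural, 0 and 0 of the fibroblast, 0 and 1 of the astrocyte, 0 and 2 of the microglial, 0 and 2 of the neuronal, 2 and 0 of the cerebellar and 1 and 0 of the choroid plexus markers, and 0 of the T cell, other leukocyte and blood markers, where the share over all protein-coding genes was 14.1%.

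**Figure D5:**
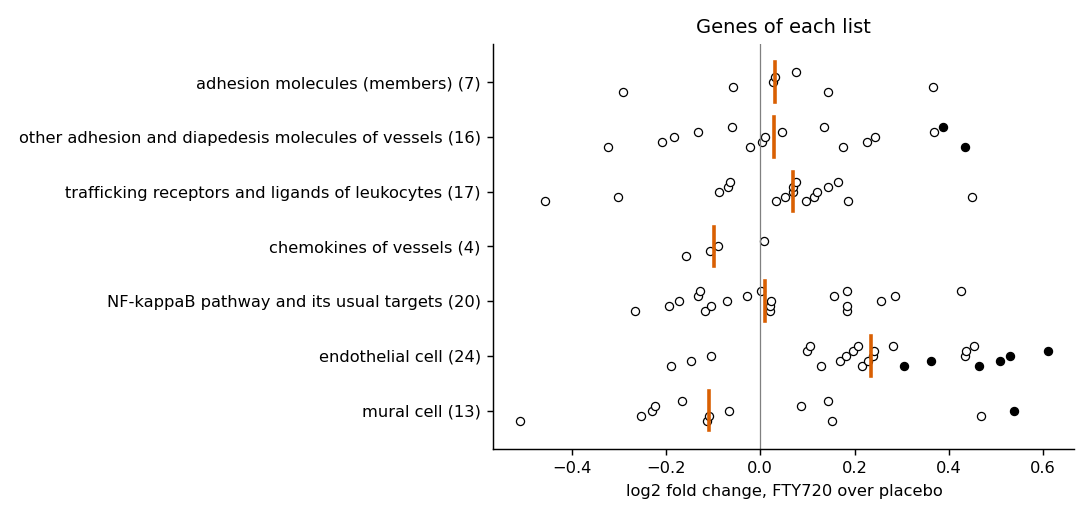
Log2 fold changes for FTY720 over placebo of the tested genes in each list, with the number of genes in brackets, the list's median as an orange line, and filled points for an unadjusted p under 0.05 (edgeR). The adhesion molecules centre on 0.03 with no filled point, the endothelial markers on 0.23 with 6.

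Since the vessel share of a tissue piece can vary, each member was also taken relative to the mean log2 CPM of the 24 endothelial markers. On this scale 1 of 7 members had an exact permutation p under 0.05, against 9.88% of protein-coding genes, whose median was -0.23 and of which 13806 of 14784 were lower. This was Mcam, at -0.56 on the log2 scale for FTY720 over placebo (exact permutation p = 0.0476), and its groups still overlapped. In the 6 digit 3 mice alone the value was -0.33, and on the same scale Mcam was higher by 0.60 with digit 3 than with digit 1 (exact permutation p = 0.0286), a difference that the treatment value of all mice does not take into account. The count ran from 0 to 2 when 1 mouse was left out, and Mcam kept a p under 0.05 only without F3-612 or F3-908. The count was 0 without F1-624, F1-918, F3-609, P3-612, P1-623 or P3-907, and without P3-904 the 1 member was Icam2. Without F1-622 the 2 members were F11r (-0.30, exact permutation p = 0.0159) and Cd99l2 (-0.27, exact permutation p = 0.0317). The share of protein-coding genes was taken only with all 10 mice, so these counts have no share beside them. Icam1 was at 0.13 on this scale (p = 0.514, exact permutation test) and the other 6 members were negative, but Icam1 went to 0.036 without F1-622 and to -0.033 without P3-907.

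After the mean of the mice with the same digit was subtracted, the genes whose log2 CPM went most with each member over the 10 mice were found among the protein-coding genes. They were Rp2 and Tmem170 for Icam1 (Pearson r 0.92 and 0.92), Gkn3 and Tcfl5 for Icam2 (0.93 and 0.91), and Cisd2 and Eif4e for Vcam1 (0.97 and 0.97). For Alcam they were Zdhhc15 and Rhobtb3 (0.96 and 0.91), and for Mcam Lamp5 and Pias3 (0.95 and 0.95). For F11r they were Tspan12 and Ccdc69 (0.96 and 0.96), and for Cd99l2 Tspan13 and Spcs2 (0.98 and 0.98). No member was among the 2 leading genes of another. Between members r ran from -0.63 (Icam1 with Mcam) to 0.82 (F11r with Cd99l2). With 14784 genes to choose from and 10 libraries that share depth and composition, values of this size are a description only.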

How the data were processed

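Brain RNA of 10 Slc20a2-HO mice (6 FTY720, 4 placebo) was sequenced from NEBNext Ultra libraries. Per the labels and the study's methods, bases were called with CASAVA 1.8 and paired-end reads aligned to GRCm38/mm10 with HISAT2 2.0.5. fastp, featureCounts 1.5.0-p3 and DESeq2 1.20.0 are also named in the submitters' processing notes, without a role. The strand setting and annotation release are not given in the sources used here. The authors deposited whole-number counts per gene and FPKM values, which are scaled by a library total that is 0.962 to 1.05 times the column total.

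From the counts, genes were filtered with filterByExpr, scaled by TMM and tested with edgeR 4.0.16 (R 4.3.3, quasi-likelihood), with Benjamini-Hochberg adjustment over all genes. Intervals are 95%. Standard errors are the log2 fold change over the square root of F. For single genes, group means of log2 CPM (prior count 2) were set against all 210 ways of dividing the mice into 6 and 4 (exact permutation test, two-sided). P-values measure the spread between mice. Named genes are the members, reference markers, the 2 genes most like each member, and genes of 15 lists (227 of 228 in the table) with unadjusted p under 0.05 in the treatment fit. The members and lists were chosen with earlier results of these data known. S100a8, S100a9, Ly6g, Cd3d, Cd3e, Cd3g, Cd4, Trbc2, Itpr1 and Calb1 were named after their values were seen. Symbols Ccl19 and Ccl21a each match several rows.

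Each mouse is 1 replicate. No pair of libraries agreed within sampling noise (chi-square per degree of freedom at least 16.1 in 45 pairs). Member coordinates equalled GENCODE M21 for 9 of 9. Promoter sequences are RefSeq's, matched by symbol for 7 of 9 members. Icam2 and Vcam1 had no entry. Alternatives were DESeq2 1.42.0, other scalings and filters, limma 3.58.1 on log2(FPKM + 0.1) and log2(FPKM + 1), other covariates, digit 3 mice alone, each mouse left out, and levels relative to endothelial markers. The fits were tested on simulated data with planted changes larger than those of the members. The simulated treatment comparison held no digit effect, so small differences beside a digit effect were not covered.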

Additional observations from a re-analysis of the deposited data

Results flagged for a closer look

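Among the 18 sets of values examined (9 members in each treatment group), 1 held a mouse far from the rest of its group, and chance alone flags about 1 in 20 such sets. Cd99l2 was at 116 CPM in F1-622, against 99.6 to 104 CPM in the other 5 FTY720 mice. This mouse also had the highest level of 5 further members, as given in the report, and the cause was not tested.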

How the results depend on the processing

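No member reached an adjusted or an unadjusted p under 0.05 between FTY720 and placebo under any of the 10 alternatives or with any mouse left out, and the digit comparison called 1 member (Mcam) in each of its alternatives, with a log2 fold change of 0.58 to 0.78. Relative to the endothelial markers the count of 1 ran from 0 to 2 with a mouse left out. Signs turned only in values near 0 or on that relative scale. For treatment these were, on the relative scale, Vcam1 (-0.090), Alcam (-0.16), F11r (-0.20) and Cd99l2 (-0.20), and F11r in the mice with digit 3 alone (-0.15). With a mouse left out Icam2 ran from -0.22 to 0.13 and F11r from -0.059 to 0.14. For the digit, Alcam changed to 0.0014 with DESeq2 and with RLE scaling, 0.015 with upper-quartile scaling and with at least 10 counts in every mouse, 0.012 with the leading digit of the mouse number added, and 0.037 in FTY720 mice alone. F11r changed to -0.0096 without a filter, -0.00075 without the treatment term and -0.17 in FTY720 mice alone, and Icam2 to -0.020 in FTY720 mice alone. With a mouse left out the digit values ran from -0.022 to 0.21 for Icam1, -0.026 to 0.32 for Icam2, -0.13 to 0.011 for Vcam1, -0.032 to 0.035 for Alcam and -0.18 to 0.13 for F11r. Without F1-622, chosen after the data were seen, the difference of mean CPM was 0.030 for Sele and -0.0051 for Selp. The cause of these changes was not tested. Over all settings, 254 values of single members kept their direction and side of the threshold, 34 changed sign and 1 passed a threshold it had missed (Mcam on the relative scale, -0.56).

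No paired analysis was made, because each mouse received 1 treatment and the labels name no pairs or litters. Of the mice's own numbers the treated and placebo mice share 1 (612). Limits of these data are the 4 placebo mice with only 1 of digit 1, a digit of unknown meaning, and few counts of Icam1, Icam2, Sele and Selp. Adhesion molecules acting as protein on the vessel surface were not measured here, and RNA of vessels was not separated from that of other cells.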
